A study of Rattus norvegicus with 4 samples.

Results

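Plin2 and Hilpda, a pair of genes for proteins of the lipid droplet, were followed in neonatal rat cardiomyocyte cultures given eicosapentaenoic acid (EPA) or docosahexaenoic acid (DHA). All probes of both genes were taken by gene symbol, older symbols included: 2 probes of Plin2 and 1 of Hilpda, among 20500 measured probes, which is 2 of 9653 named genes. The genes were chosen because earlier results from the same arrays showed them above control, so their own ratios are a description and carry no test. Ventricles of newborn Wistar rats gave the primary cultures, which hold beating cardiomyocytes together with other cells of the heart wall. Supplemented cultures received 60 µM EPA or 60 µM DHA, control cultures had no added fatty acid, and all of them grew in HAM F10 with fetal calf and horse serum at 10% each, changed every 48 h, until confluent. Each fatty acid was set directly against control RNA on 2 arrays of 2 colours with the dyes exchanged, array 1 having the supplemented cells in Cy5 and array 2 in Cy3, which makes 4 arrays. The labels do not say whether both arrays of a swap hold the same RNA extracts or whether EPA and DHA share a control RNA, so a swap counts here as 1 RNA sample. Values of a swap are given in the order array 1, array 2.

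A cell stores surplus fatty acid as triglyceride in lipid droplets, and a coat of proteins on the droplet surface governs how fast that store is broken down again. Plin2 (perilipin 2, formerly Adfp) is the coat protein found on droplets of most cells, is degraded when no droplet is there to bind it, and is a textbook target of the fatty acid sensing receptors called PPARs. Hilpda (hypoxia inducible lipid droplet associated, formerly Hig2) is a small droplet protein that inhibits adipose triglyceride lipase, the enzyme that starts triglyceride breakdown, and it is induced by low oxygen as well as by fatty acids. EPA and DHA are long-chain polyunsaturated fatty acids of fish oil, DHA having the longer chain and an additional double bond.

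In the rat genome assembly GRCr8, RefSeq places Hilpda on chromosome 4 (58836463 to 58839423) and Plin2 on chromosome 5 (106202634 to 106258748). The 250 bases before a transcription start of each gene are shown because the transcripts of both lay above control together and because both genes are known for control at the promoter. Capitals mark the letters ACGTG or GCGTG, the core of the element that hypoxia-inducible factors bind, on either strand. The Plin2 sequence is chr5:106229019-106229268, minus strand, and the Hilpda sequence is chr4:58836213-58836462, plus strand, both from RefSeq on GRCr8.
Plin2: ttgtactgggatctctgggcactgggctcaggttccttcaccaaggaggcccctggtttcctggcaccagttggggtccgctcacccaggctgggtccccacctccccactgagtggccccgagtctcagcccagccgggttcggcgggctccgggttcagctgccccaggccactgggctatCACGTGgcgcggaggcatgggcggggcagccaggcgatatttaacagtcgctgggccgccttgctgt
Hilpda: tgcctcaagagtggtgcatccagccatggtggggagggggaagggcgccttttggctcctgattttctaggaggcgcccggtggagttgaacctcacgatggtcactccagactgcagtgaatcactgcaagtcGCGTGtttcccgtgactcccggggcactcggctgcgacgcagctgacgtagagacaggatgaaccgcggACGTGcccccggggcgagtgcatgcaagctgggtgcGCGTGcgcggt

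The Hilpda sequence held ACGTG once, 47 bases before the start, and GCGTG at 116 and 11 bases before it. The Plin2 sequence held ACGTG on both strands at one place, 67 bases before the start, where the letters form CACGTG, the E-box, a site that other factors also bind. On either strand, ACGTG occurred in 16.6% of 33469 RefSeq promoters of the same length, GCGTG in 25.9% and CACGTG in 5.59%. Each of these contains CG, and the sequences shown held 21 CG pairs (Hilpda) and 13 (Plin2), against a median of 5 over all promoters. The shares over all promoters are therefore no measure for sequences so rich in CG. AGGTCANAGGTCA, the full PPAR response element in exact form, was in neither sequence and in 0.0508% of all promoters. Its repeated unit AGGTCA was in neither sequence and in 14.1% of all. Absence of letters this rare is near the share over all promoters and is no result about either gene. A second Plin2 start in the same table, chr5:106228538-106228787, held none of these letters. Both Plin2 windows lie inside the span of the gene, and the region before its upstream end at 106258748 was not searched. These matches are letters in a window and were not tested for binding.

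Values are log2 ratios with the median of each array set to 0, read as fatty acid over control. That reading is an assumption and is not stated in the sources. It was chosen because all sample titles name the supplemented cells and because of genes of fatty acid oxidation. Under it 9 of 18 measured genes of that list lie above 0 on all 4 arrays. The other 9 fall below 0 on at least 1 array. The list was fixed with earlier results of these arrays known, so it cannot settle the reading, on which the ratios of both members rest. Across probes the arrays of a swap had negative r, -0.11 with EPA and -0.03 with DHA. Those signs would turn if the table ran as Cy5 over Cy3. If the table ran as control over fatty acid, all directions would turn together, and if it ran as Cy5 over Cy3, the values of arrays 2 would turn, which is given beside the results. The log base is not stated either. Base 2 was used because the highest values, 4.12 on EPA array 2 and 4.21 on DHA array 2, would be ratios of 13061 and 16140 in base 10. Ratios carry no level, so neither the abundance of these transcripts nor the identity of the cultured cells could be checked against markers, and a higher ratio from whole cultures cannot tell more RNA per cell from more cells of a type that expresses the gene.

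Hilpda lay above control on all 4 arrays. Its probe read 0.75 and 0.59 on the EPA swap, and 0.78 and 0.70 on the DHA swap. All 4 values were close together, and the EPA range overlapped the DHA range. The swap mean, with the distance of either array from it as the error, was 0.67 ± 0.08 with EPA (1.59-fold, from 1.51 to 1.68 on single arrays) and 0.74 ± 0.04 with DHA (1.67-fold, from 1.62 to 1.72). Among the 20500 probes it ranked 146 and 138 from the top on the EPA swap, and 35 and 112 on the DHA swap. Exchanging the dyes thus left the Hilpda probe in the top 1% of each array, at 0.712%, 0.673%, 0.171% and 0.546% from the top in the same order.

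Plin2 was less even, and its probes disagreed in one dye orientation. Probe 1 of Plin2 read 0.56 and 0.74 on the EPA swap, and 0.53 and 0.63 on the DHA swap. Probe 2 read -0.02 and 0.69 on the EPA swap, and 0.21 and 0.63 on the DHA swap. On arrays 2, with the supplemented cells in Cy3, the probes lay within 0.05 of each other with EPA and 0.0038 with DHA. On arrays 1 they lay 0.59 apart with EPA and 0.32 apart with DHA, probe 2 being the lower one both times. Both probes carry the same transcript accession in the annotation, and their own sequences were not used here.

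To place that disagreement, all 1344 transcript accessions with exactly 2 measured probes were compared. The probes of a pair lay a median of 0.18 apart on EPA array 1 and 0.21 apart on DHA array 1, and 6.18% and 36.8% of pairs were at least as far apart as those of Plin2. On EPA array 2 and DHA array 2 the medians were 0.14 and 0.12, and 79.8% and 98.6% of pairs lay at least as far apart. The Plin2 probes were thus among the wider pairs on EPA array 1 and among the closer ones on DHA array 2. Pairs were not limited to probes outside the region of low values on DHA array 1 described below, where neither Plin2 probe lies. The 90th percentile of the distance was 1.18 on that array, against 0.51 on EPA array 1. The 36.8% is therefore no plain measure for the Plin2 probes.

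Averaged over its probes, Plin2 stood at 0.49 ± 0.22 with EPA (1.41-fold) and 0.50 ± 0.13 with DHA (1.42-fold). Probe 1 alone gave 0.65 ± 0.09 with EPA (1.57-fold) and 0.58 ± 0.05 with DHA (1.45-fold and 1.55-fold on single arrays), and probe 2 alone 0.33 ± 0.36 (1.26-fold) and 0.42 ± 0.21 (1.34-fold). Probe 1 ranked 607, 88, 174 and 139 from the top on EPA arrays 1, 2 and DHA arrays 1, 2. Probe 2 ranked 99 and 137 on EPA array 2 and DHA array 2, but 11211 on EPA array 1, close to the middle of the array, and 2078 on DHA array 1.

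**Figure D1:**
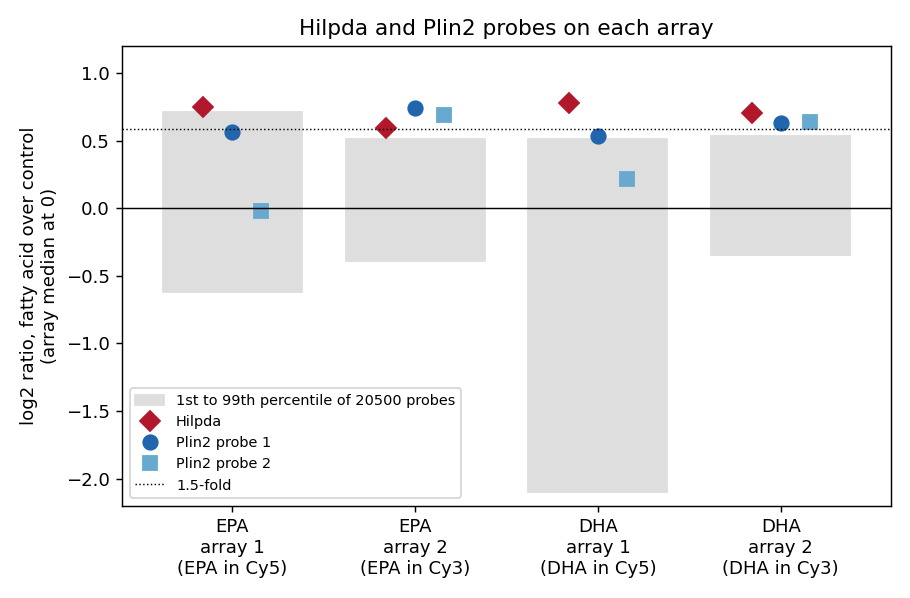
Log2 ratio of fatty acid over control for the Hilpda probe and both Plin2 probes on each of the 4 arrays, with grey bars from the 1st to the 99th percentile of all 20500 probes and a dotted line at 1.5-fold. Hilpda sits above the dotted line on every array, while Plin2 probe 2 reaches it only on arrays 2 and lies at -0.02 on EPA array 1.

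By the size rule, at least 1.5-fold (0.585 on the log2 scale) on both arrays of a swap in the same direction, Hilpda counted as higher with EPA and with DHA. Plin2 counted with neither, because its mean passed the threshold on arrays 2 (0.72 with EPA, 0.63 with DHA) and missed it on arrays 1 (0.27 and 0.37). Over all 9653 genes, 0.0311% were higher and 0.0% lower with EPA, and 0.0414% were higher and 0.0414% lower with DHA. At 1.3-fold the shares higher were 0.176% with EPA and 0.145% with DHA, and Hilpda was again counted with both and Plin2 with neither. The EPA count of Hilpda rests on a narrow margin: EPA array 2 read 0.58 as deposited, under the threshold, and 0.59 after its median was set to 0. Of the 9653 genes, 27 with EPA and 5 with DHA went 1.5-fold in opposite directions on the arrays of a swap, and the cause was not tested. Neither member was among them, which was close to fixed by choosing both for lying above control on these arrays.

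Ranked by the mean of the 4 arrays, Hilpda stood at place 4 and Plin2 at place 18 of 9653 genes. By the lowest of the 4 values Hilpda stood at place 2, behind Cpt1b, muscle carnitine palmitoyltransferase, the gatekeeper of mitochondrial fatty acid entry, and Plin2 at place 9. Probe by probe, 8 probes were at least 1.3-fold higher on all 4 arrays. Of these, 5 are named, chosen here after their values were seen: Hilpda, probe 1 of Plin2, Cpt1b, Ech1 (an isomerase that serves unsaturated fatty acids) and Dhrs3 (a retinal reductase). The other 3 are unlisted in the annotation. At 1.5-fold on all 4 arrays 3 probes remained, those of Hilpda and Cpt1b and an unlisted one.

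Under the Cy5 over Cy3 reading both genes would lose these places. Hilpda would stand at 0.08 with EPA and 0.04 with DHA and Plin2 at -0.22 and -0.13. Neither gene would reach 1.5-fold under that reading. The Hilpda values of 0.59 to 0.78 would then follow the dye and not the culture. Arrays 2 resembled each other far more than the arrays of a swap did: across the 20500 probes, which are not independent replicates and may share a control RNA, Pearson's r was 0.65 between EPA array 2 and DHA array 2 and 0.06 between EPA array 1 and DHA array 1. Between the arrays of a swap it was -0.11 with EPA and -0.03 with DHA, and it was -0.32 between EPA array 1 and DHA array 2.

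The probes of both genes lay outside a region of low values on DHA array 1. Feature numbers were laid out as a grid of 215 columns, the lag at which DHA array 1 resembled itself most, and that array had 1090 values below -1, of which 1082 lay in the first 66 columns. The Hilpda probe lies in column 114 and the Plin2 probes in columns 193 and 141. The median of the surrounding square of 15 by 15 features ran from -0.11 to 0.11 over the 3 probes and 4 arrays. With that local median subtracted, Hilpda stood at 0.70 with EPA and 0.69 with DHA, and Plin2 at 0.51 with each.

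EPA and DHA, given at the same dose, were also set against each other for each gene. For Hilpda, EPA minus DHA was -0.03 between arrays 1 and -0.11 between arrays 2, with a mean of -0.07 ± 0.04. For Plin2 averaged over its probes it was -0.10 between arrays 1 and 0.08 between arrays 2, with a mean of -0.0097 ± 0.09. Both mean differences were far smaller than the ratios to control. By probe, Plin2 probe 1 had 0.07 ± 0.04 and probe 2 had -0.09 ± 0.15, so the sign differed between the probes of the gene.

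With 1 RNA sample per fatty acid this comparison has no replicate check. If the arrays of a swap held separate extracts, limma over the 4 arrays and all 20500 probes would give a 95% interval for EPA minus DHA of -0.43 to 0.29 for Hilpda, -0.30 to 0.44 for Plin2 probe 1 and -0.90 to 0.72 for Plin2 probe 2, with 3 probes of 2 genes and 1 contrast compared. That fit leaves out the pairing of arrays by dye orientation. The adjusted p was 0.999969 for each of the 3 probes by limma with Benjamini-Hochberg adjustment, and 0.0% of all probes passed 0.05. Unadjusted p was under 0.05 for 218 probes, and 0 probes also passed by limma with the replicate number as a block, with 359 under 0.05 unadjusted. The block pairs the arrays of one dye orientation. Its intervals were -0.38 to 0.24 for Hilpda, -0.24 to 0.38 for Plin2 probe 1 and -0.48 to 0.30 for probe 2. For Plin2 probe 2 the intervals of both fits hold differences larger than its ratios to control, 0.33 with EPA and 0.42 with DHA. For Hilpda and Plin2 probe 1 the intervals stay short of the ratios to control but reach -0.43 and 0.44 without the block. None of the intervals shows that the pair of fatty acids act alike on either gene.

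The other genes of the droplet surface had ratios on both sides of 0, from a mean over 4 arrays of -0.23 for Rab18 to 0.17 for Cidea. Of 15 genes in that list 11 were measured, and without Plin2 and Hilpda the other 9 had a median of -0.04 with EPA, with DHA -0.0075. By the size rule 0 of 9 counted in either direction and 0 of 9 were above 0 on every array, where 7.0% of all genes were. Since 0.0311% of all genes were higher with EPA and 0.0414% with DHA, a count of 0 in a list of this size, here and below, is near the share over all genes and is no result about the list. Plin3 and Plin5 are the other perilipins with a probe here. Plin3, which moves to droplets from the cytosol, was at 0.03 ± 0.09 with EPA and -0.15 ± 0.13 with DHA. Plin5, the perilipin of oxidative tissues such as heart, was at -0.0020 ± 0.10 and 0.08 ± 0.16. Its sign changed with the dye orientation, at 0.10 and 0.24 on EPA array 1 and DHA array 1 and at -0.10 and -0.08 on EPA array 2 and DHA array 2. Neither perilipin lay on one side of 0 on all arrays.

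The CIDE proteins, which move lipid between droplets in contact, also stayed below the threshold. Cidea, chiefly known from brown fat, read -0.10 and 0.10 on the EPA swap against 0.31 and 0.38 on the DHA swap, a mean of -0.00033 ± 0.10 with EPA and 0.34 ± 0.03 with DHA. A difference between the fatty acids was not tested for this gene. Cideb was at -0.17 ± 0.17 with EPA and -0.01 ± 0.12 with DHA, and Cidec at 0.0082 ± 0.04 and 0.0014 ± 0.04. Among other proteins of the droplet surface, the dehydrogenase Hsd17b11 was at -0.05 ± 0.02 with EPA and -0.0075 ± 0.06 with DHA, and the hydrolase Ldah at -0.06 ± 0.08 and 0.10 ± 0.0039. Faf2, which brings the protein degradation machinery to droplets and whose probe lies in the first 66 columns, was at -0.04 ± 0.10 and -0.23 ± 0.02. Rab18, a small GTPase of droplets, lay below 0 on all 4 arrays at -0.36 ± 0.18 with EPA and -0.09 ± 0.04 with DHA, against 7.59% of all genes below 0 on all 4. Its 2 probes read -0.99 and -0.08 on EPA array 1, so its probes disagreed there. On DHA array 1 they read -0.36 and 0.26 and differed in sign. The place below 0 on that array thus holds for the probe mean and not for both probes.

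**Figure D2:**
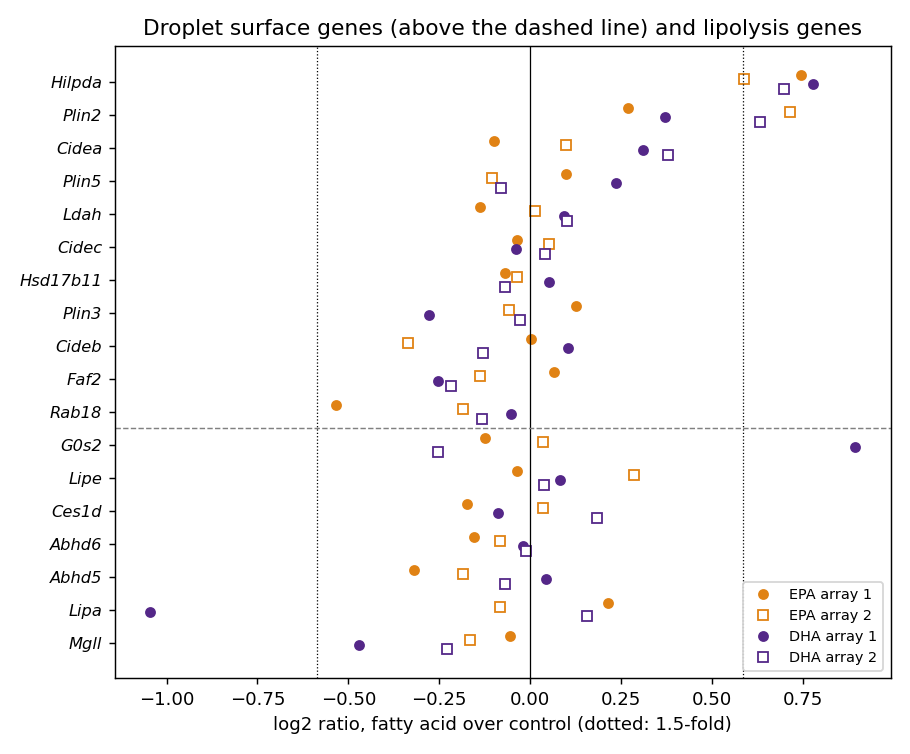
Log2 ratio of fatty acid over control on each array for the measured genes of the droplet surface (upper block) and of lipolysis (lower block), each block ordered by the mean of 4 arrays, with dotted lines at 1.5-fold in either direction. Hilpda and Plin2 lie to the right of the other genes on EPA array 2 and DHA array 2, and single points beyond the dotted lines, such as Lipa and G0s2 on DHA array 1, are not met by the other array of the swap.

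Triglyceride breakdown, which Hilpda restrains, was read from 7 measured genes, of which 0 met the size rule, against 0.0311% of all genes higher with EPA and 0.0414% with DHA. The median of the 7 lay at -0.07 with EPA and -0.01 with DHA, against -0.0012 and 0.00021 over all genes. G0s2, like Hilpda an inhibitor of adipose triglyceride lipase, was at -0.04 ± 0.08 with EPA and 0.32 ± 0.57 with DHA, with 0.89 on DHA array 1 and -0.25 on DHA array 2. Abhd5, the activator of the same lipase, was at -0.25 ± 0.07 and -0.01 ± 0.06. Lipe, hormone-sensitive lipase, was at 0.13 ± 0.16 and 0.06 ± 0.02. The lipase itself, Pnpla2, was not analysed here. G0s2 thus passed the threshold on DHA array 1 alone, and the arrays of its DHA swap disagreed in sign.

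Further down the pathway, Mgll, which cleaves the last fatty acid from monoglyceride, was at -0.11 ± 0.06 with EPA and -0.35 ± 0.12 with DHA, with 1 of its 2 probes in the first 66 columns. Abhd6, another monoglyceride lipase, was at -0.12 ± 0.04 and -0.01 ± 0.0035. Mgll and Abhd6 lay below 0 on every array, 2 of the 7 genes, where 7.59% of all genes did. For Mgll this rests on the probe in the first 66 columns, which read -0.27 on EPA array 1 and -1.07 on DHA array 1, while its other probe read 0.17 and 0.13 there. Ces1d, a carboxylesterase, was at -0.07 ± 0.10 and 0.05 ± 0.14. Lipa, the lysosomal acid lipase, was at 0.07 ± 0.15 with EPA and -0.44 ± 0.60 with DHA. Its probe and that of Abhd5 lie in the first 66 columns.

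The 10 measured genes of triglyceride synthesis and droplet assembly had a median of 0.07 with EPA, with DHA 0.01. The size rule was met by 0 of 10, near the 0.0311% and 0.0414% of all genes. The highest means over 4 arrays belonged to Lpin3, a phosphatidate phosphatase, at 0.09, and Dgat1, which makes triglyceride in the last step, at 0.06. The lowest belonged to Fitm1, a droplet assembly protein of muscle, at -0.03, and Lpin2, another phosphatidate phosphatase, at -0.01. The whole list thus spanned from -0.03 to 0.09.

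The 16 measured genes of fatty acid uptake, binding and activation had a median of 0.03 with EPA, with DHA also 0.03. Of these, 4 lay above 0 on every array, where 7.0% of all genes did, and 0 met the size rule, near the 0.0311% and 0.0414% of all genes. Dbi, the acyl-CoA binding protein, was at 0.26 ± 0.09 with EPA and 0.19 ± 0.16 with DHA. Got2, a mitochondrial aminotransferase also described as a fatty acid binding protein of the cell surface, was at 0.19 ± 0.05 and 0.21 ± 0.05. The lowest were Acsl3, the acyl-CoA synthetase of nascent droplets, at -0.15 ± 0.19 and -0.81 ± 0.70, and Slc27a1, a fatty acid transporter, at 0.17 ± 0.0042 and -0.69 ± 0.86. Both have their probe in the first 66 columns, and their low DHA means come from DHA array 1, at -1.50 and -1.54.

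Plin2 is known as a PPAR target, and some other such targets, Cpt1b and Ech1 first among them, had ratios above 0 on all 4 arrays. Of 18 measured genes of fatty acid oxidation known as PPAR targets, 1 met the size rule with EPA and 1 with DHA, Cpt1b both times, and 9 lay above 0 on every array, where 7.0% of all genes did. The other 9 did not, among them Hadha, at -0.02 on EPA array 1, and Acadm, at -0.03 there and -0.10 on DHA array 1. Cpt1b was at 0.91 ± 0.02 with EPA and 1.14 ± 0.16 with DHA, and Ech1 at 0.77 ± 0.26 and 0.90 ± 0.38. The list's medians were 0.21 with EPA and 0.35 with DHA, against -0.0012 and 0.00021 over all genes. Genes of this list helped to choose the reading of the table, so their side of 0 is not independent of it. Ehhadh, a peroxisomal oxidation enzyme, and Acadm, the medium-chain acyl-CoA dehydrogenase, had the lowest means over 4 arrays, at 0.01 and 0.02.

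The 10 measured PPARs, RXRs and cofactors had means over 4 arrays between -0.07 and 0.16. Ppara, the main PPAR of oxidative tissue, had a mean over 4 arrays of -0.06, as against -0.07 for Ppard and 0.13 for Pparg. Nrip1, a corepressor of nuclear receptors, had the highest mean of this list at 0.16.

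Hilpda is also known as a target of hypoxia-inducible factors, and 25 other targets were measured. Their medians were 0.07 with EPA and 0.02 with DHA, and 0 of 25 lay above 0 on every array, where 7.0% of all genes did. The size rule was met by 0 of 25, near the 0.0311% and 0.0414% of all genes. Vegfa, the vascular growth factor, read 0.73 and 0.24 on the EPA swap and -0.23 and 0.25 on the DHA swap, so it lay above control with EPA and on both sides of it with DHA. Eno1, a glycolytic enzyme, had opposite signs in the dye orientations, with -0.11 and 0.85 on the EPA swap and -0.26 and 0.57 on the DHA swap. Aldoa, another glycolytic enzyme with its probe in the first 66 columns, was lowest at a mean of -0.29 over 4 arrays, followed by Bnip3, a mitophagy receptor, at -0.15.

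The hypoxia-inducible factor subunits and their regulators had means over 4 arrays between -0.09 and 0.08 in the 6 measured genes. Hif1a, the oxygen-regulated subunit, was at -0.06 ± 0.17 with EPA and -0.09 ± 0.21 with DHA, and Epas1, its relative, at -0.04 ± 0.06 and -0.14 ± 0.02. Arnt, their shared partner, had a mean over 4 arrays of 0.04, and Egln2, an oxygen-sensing hydroxylase, of 0.08.

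**Figure D3:**
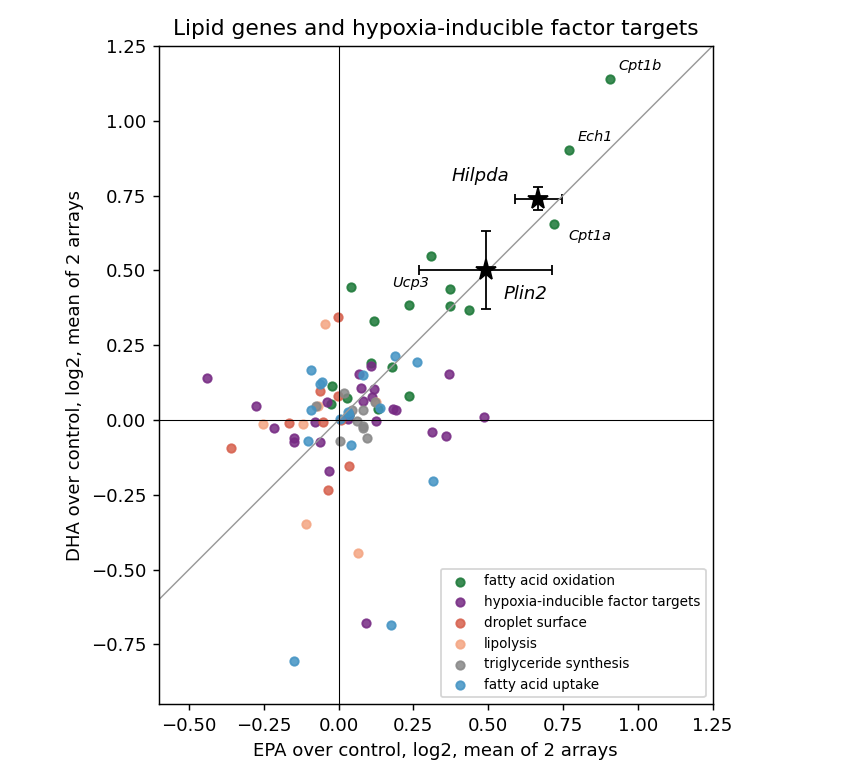
Swap mean of EPA over control (x axis) and of DHA over control (y axis), both log2, for the measured genes of 6 lists, with Plin2 and Hilpda as stars whose bars reach the values of the single arrays and a grey line where both means are equal. Hilpda (0.67, 0.74) and Plin2 (0.49, 0.50) lie near that line, apart from the other droplet, lipolysis and hypoxia-inducible factor genes. Only the highest genes of fatty acid oxidation, such as Cpt1b, Ech1 and Cpt1a, reach as far. Most genes of that list lie lower, with medians of 0.21 with EPA and 0.35 with DHA.

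The 5 genes with the array pattern most like each member were found by Euclidean distance over the 4 array values, on the log2 scale and among all 9653 genes. Nearest to Plin2 were Ucp3, a mitochondrial carrier of muscle, at a distance of 0.22, and Decr1, an accessory enzyme of fatty acid oxidation, at 0.33. Fbn1, a microfibril protein, followed at 0.33, Vipr2, a receptor for vasoactive intestinal peptide, at 0.34, and Hadha, a subunit of the mitochondrial trifunctional protein, at 0.38. Ucp3, Decr1 and Hadha also belong to the list of oxidation genes above, and Fbn1 to the fibroblast markers. Ucp3 read 0.19 and 0.56 on the EPA swap and 0.37 and 0.51 on the DHA swap. All 5, like Plin2, read higher on array 2 than on array 1 of each fatty acid, which was close to fixed by choosing them for their distance to Plin2.

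Hilpda had no neighbour as close. Dhrs3 was nearest at a distance of 0.40, with 0.73 and 0.69 on the EPA swap and 0.48 and 0.46 on the DHA swap. Nrep, a neuronal regeneration related protein, followed at 0.56, Slc13a5, the citrate transporter of the plasma membrane, at 0.60, Sulf2, a sulfatase of heparan sulfate, at 0.61, and Star, which carries cholesterol into mitochondria, at 0.62. Plin2 came next, at place 6 with a distance of 0.64. Seen from Plin2, Hilpda was at place 97. These distances use the mean of the Plin2 probes and depend on which probe is taken. Probe 1 of Plin2 alone lay 0.35 from Hilpda, nearer than Dhrs3, and probe 2 alone lay 0.96 from it.

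**Figure D4:**
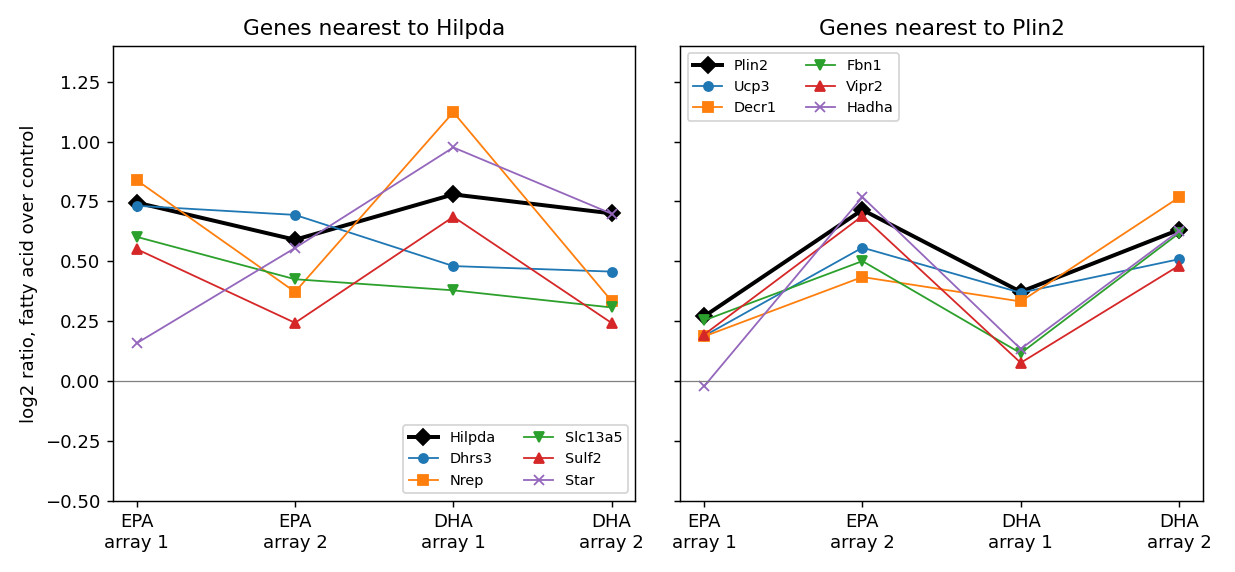
Log2 ratio of fatty acid over control on the 4 arrays for Hilpda (left) and Plin2 (right) in black, each with the 5 genes at the smallest Euclidean distance, with lines to guide the eye. The genes near Plin2 read higher on arrays 2 than on arrays 1 of each fatty acid, as Plin2 does, a likeness close to fixed by their choice. Hilpda stays between 0.59 and 0.78.

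Markers of other cells that make droplets or express these genes were read beside them. Of 6 adipocyte markers 3 were measured, with means over 4 arrays of 0.03 for Adipoq, 0.04 for Lep and 0.12 for Cfd, and 0 met the size rule. Of 9 measured macrophage markers 0 met it. Lyz2, the lysozyme of macrophages, was below control at -0.74 ± 0.45 with EPA and -0.77 ± 0.36 with DHA, and Cd14 at -0.16 ± 0.07 and -0.20 ± 0.09, while Cd68 and Mrc1 had means over 4 arrays of 0.04 and 0.06. The macrophage medians were -0.05 with EPA and 0.05 with DHA.

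Among markers of the heart wall 0 met the size rule, near the share over all genes. The medians of 9 cardiomyocyte markers were -0.08 with EPA and -0.0072 with DHA, from Actc1, cardiac actin with its probe in the first 66 columns, at a mean of -0.27 to Myh6, a myosin heavy chain, at 0.13. Pln and Tnnt2 had means of -0.14 and 0.10. The medians of 8 fibroblast markers were 0.09 and -0.05, with Dcn at -0.31 and Lum at -0.25 but Fbn1 at 0.37. Dcn and Fbn1 have their probe in the first 66 columns. Of the 8, 1 lay above 0 on every array and 3 below, where 7.0% and 7.59% of all genes did. The medians of 6 endothelial markers were -0.02 and 0.05, from Emcn at -0.10 and Cdh5 at -0.0083 to Vwf at 0.04 and Kdr at 0.19. Of 4 smooth muscle markers 2 were measured, Tagln and Cnn1, and Cnn1 had a mean of -0.06. No ratio is given for Tagln or for the fibroblast markers Col1a2 and Fn1, because all 3 share their value within 0.001 with 31 other probes on EPA array 1 and 34 on DHA array 1, so that these are not separate measurements. The cause of the repeated values was not tested, and the fibroblast medians include Col1a2 and Fn1. The part of any of these cell types in the ratios of Hilpda and Plin2 was not tested.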

How the data were processed

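The values deposited by the authors, a single one for each feature on an array, were taken as log2 of the ratio between channels. Of 22575 features, 2075 were empty throughout and 20500 were measured on 4 of 4 arrays. Cy3 and Cy5 labelled cRNA was hybridised to an Agilent rat oligonucleotide array, per the labels. How the spots were scanned, corrected and normalized, the log base and the direction: not given in the sources used here. Intensities were not used, and the number of arrays limits the precision.

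Array medians as deposited were 0.0024, -0.0084, -0.0097 and -0.0094 (EPA arrays 1, 2, DHA arrays 1, 2) and were set to 0. Gene names come from the platform annotation, updated by gene ID through a GRCr8 gene table. It gave 1 symbol to 12750 probes, several to 5, which stayed unnamed, and none to 7745. Probes of a gene were averaged. EPA minus DHA was fitted with limma 3.58.1 in R 4.3.3 (lmFit, eBayes), tested on simulated data, and the rest computed with Python 3.11.15. Genes named are the members, the whole droplet surface and lipolysis lists, in other lists those that met the size rule and the 2 highest and 2 lowest means, and the 5 nearest genes. The members, lists and rules were chosen with earlier results of these data known. Alternatives tried were the reading, log base, centring, scaling, threshold, single probes and leaving out an array.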

Additional observations from a re-analysis of the deposited data

Results flagged for a closer look

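In 2 of the named genes both EPA arrays lay on one side of 0 and both DHA arrays on the other, and these differences were not tested. The share of all genes with such a split was not counted, so the count of 2 is no result about these genes. Cnn1, a smooth muscle calponin, read 0.14 and 0.11 on EPA arrays 1 and 2 against -0.40 and -0.10 on DHA arrays 1 and 2, so EPA minus DHA was 0.37. Lep, the fat cell hormone leptin, read -0.03 and -0.04 on EPA arrays 1 and 2 against 0.19 and 0.03 on DHA arrays 1 and 2, a difference of -0.15. Groups of 2 arrays are too small for a check of single outlying arrays, and neither Plin2 nor Hilpda lay on opposite sides with EPA and DHA.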

How the results depend on the processing

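Of 122 recomputed values 85 changed by no more than the SD of the 2 arrays (for counts, 1.5 times), 37 changed by more and 0 turned a called direction. Only the ratios of Hilpda to control, the called ones, could turn by this rule. Leaving out 1 of 2 arrays always moves a mean by less than that SD. The reading as control over fatty acid, which turns all signs, was not among the alternatives. These totals are thus partly fixed in advance and do not measure robustness. That SD is wide for Plin2: without array 2 its EPA mean fell to 0.27 against 0.49, and EPA minus DHA ran from -0.10 to 0.08 with an array number left out and was 0.029 centred without the first 66 columns, so its sign is not settled. Read as Cy5 over Cy3, Plin2 stood at -0.22 with EPA and -0.13 with DHA and Hilpda at 0.078 and 0.040, EPA minus DHA for Hilpda was 0.038, and 0 members met the size rule. In the lists, 0 genes were then higher with either fatty acid, 1 was lower with EPA, Aldoa, and 10 against 17 of the listed genes lay above 0 on all arrays. In base 10 the log2 means were 1.64 and 1.67 for Plin2 and 2.22 and 2.46 for Hilpda with EPA and DHA, the Hilpda difference was -0.24 and both members met the rule with each fatty acid, a count of 2. Values as deposited, and centring without the first 66 columns, left 0 members called with EPA, because EPA array 2 of Hilpda read 0.58 in both. Quantile normalization moved Hilpda with DHA to 0.87, its difference to -0.23 and the listed genes higher with DHA to 2. Scaling to equal spread moved that difference to -0.13 and subtracting the local median to 0.0088, where its sign turned. At 1.3-fold 2 listed genes were higher with EPA and 3 with DHA. Judged on 1 array alone, 1 to 2 members were called with each fatty acid, 3 to 7 listed genes were higher with EPA and 2 to 7 with DHA, 0 to 2 lower with EPA and 0 to 4 with DHA, and 34 to 49 lay above 0 on both arrays used. Without array 1 Plin2 passed the threshold, at 0.72 with EPA and 0.63 with DHA. Without array 2 its DHA mean was 0.37. The arrays of a number share the dye orientation, and deviations from the swap mean correlated across probes between the fatty acids (r = 0.31). With the replicate number as a block (replicate block), EPA minus DHA was -0.072 for Hilpda and 0.071 and -0.090 for the Plin2 probes, with adjusted p between 0.858 and 0.861 by limma, and the block changed no call. The cause of these shifts was not tested.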
